A study of Mus musculus with 8 samples.

Results

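The nuclei described here carried transcripts of Slc12a3, the thiazide-sensitive NaCl cotransporter of the distal convoluted tubule, together with transcripts of Slc8a1, the Na/Ca exchanger of the basolateral membrane. A nucleus was a member when it held at least 3 unique molecular identifiers (UMIs, each standing for 1 captured RNA molecule) of Slc12a3, at least 1 of Slc8a1 and at least 3 of Slc8a1, Trpv5, Calb1 and Scnn1g together. This rule selected 3076 of 81391 nuclei that passed quality control, or 3.78%. The members were selected on the measured UMI counts of those 5 genes, so their levels are given below as a description and without a test. The rule was meant to mark the late distal convoluted tubule (DCT2), and the check against its markers below showed that this name held only for a share of the members, which are therefore called the gated nuclei.

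Nuclei were sorted from frozen kidneys of 8 male mice, 1 mouse per library, and profiled with droplet-based 3′ single-nucleus RNA sequencing. All animals were of a C57BL/6J background, were homozygous for the floxed allele (Bmal1 lox/lox) and drank doxycycline (2 mg/ml with 20 mg/ml sucrose) for 2 weeks from 8 weeks of age. The cKOt mice also carried the Pax8-rtTA and LC-1 Cre transgenes, so that the drug switched on the Cre recombinase along the renal tubule, whereas the Ctrl littermates carried only the floxed alleles. Kidneys were taken at Zeitgeber time 4 (ZT4, in the light phase) or 16 (ZT16, in the dark phase), giving 4 groups of 2 libraries each. The Pax8 promoter restricts deletion to tubular epithelium, and the other cells of the kidney keep the gene in both genotypes.

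The distal convoluted tubule reabsorbs NaCl through Slc12a3 under the control of WNK kinases, and its late portion adds active calcium reabsorption, in which calcium enters through Trpv5, is buffered by Calb1 and leaves through Slc8a1. The late portion also starts to carry the epithelial sodium channel (subunits Scnn1a, Scnn1b and Scnn1g), which is the main sodium entry of the connecting tubule that follows. The circadian clock is a transcriptional loop in which BMAL1, encoded by Arntl, pairs with CLOCK or NPAS2 to drive the Per and Cry genes, whose products inhibit the pair, while the nuclear receptors of the Nr1d family repress Arntl.

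The gated nuclei numbered 401 and 400 in the Ctrl libraries at ZT4, 345 and 398 in those at ZT16, 393 and 323 in the cKOt libraries at ZT4 and 327 and 489 in those at ZT16. Their RNA summed to between 1976999 and 2931429 UMIs per library, with a median of 5315.5 UMIs per nucleus against 3615 in all other nuclei. No barcode belonged to a gated nucleus in more than 1 library. Among all 82784 deposited barcodes, 848 occurred in 2 libraries and 3 in 3, and how many gated nuclei shared a barcode with a nucleus outside the gate was not counted. The doublet caller marked 8.88% of the gated nuclei and 5.35% of the others, and they were kept. Their share of all nuclei was 4.05% and 4.01% in Ctrl at ZT4, 3.24% and 3.71% in Ctrl at ZT16, 3.79% and 3.22% in cKOt at ZT4 and 3.73% and 4.46% in cKOt at ZT16. In Ctrl both libraries at ZT4 stood above both at ZT16 and above both cKOt libraries at ZT4, while in cKOt the times overlapped and replicate 2 at ZT16 was the highest of all. With 2 libraries against 2 an exact test cannot go below p = 0.333, so these differences were not tested. Pooled over times, the share was 3.8% ± 0.506 (SD, n = 4) in cKOt and 3.75% ± 0.375 in Ctrl, a difference of 0.0478 percentage points (two-sided exact permutation test, p = 0.886, the smallest possible p being 0.0286). Pooled over genotypes it was 3.78% ± 0.502 at ZT16 and 3.77% ± 0.382 at ZT4, a difference of 0.0153 percentage points (SD, n = 4, exact permutation p = 0.971). This pooling cannot show a time difference that is not the same in the 2 genotypes.

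Slc12a3 was abundant in the gated nuclei, with a median of 89 UMIs and an interquartile range of 58 to 130. Slc8a1 spread far more widely, with a median of 45 UMIs and an interquartile range of 8 to 269.25, and it alone satisfied the condition on the summed genes in 96.9% of the members (2982 nuclei). The calcium channel Trpv5 had a UMI in only 16% of the gated nuclei. The buffer Calb1 had one in 71.7% and the sodium channel subunit Scnn1g in 16.8%. At a threshold of 1 UMI, Slc8a1 separated little in these libraries, since 56% of 27133 nuclei with at least 10 UMIs of proximal tubule markers also held one, at a median depth of 5917 UMIs per nucleus. Near the limits of the rule, 79 members held exactly 3 Slc12a3 UMIs and 490 nuclei with 2 met the rest of the rule, 186 members had a sum of exactly 3 and 246 nuclei fell short with a sum of 2, and 26 members held a single Slc8a1 UMI while 15 nuclei with none met the rest.

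The gated nuclei were a graded population along Slc8a1, from nuclei with a few Slc8a1 UMIs per 10000 to nuclei where it was a leading transcript. They were divided, after the values had been seen and hence without a test, at 128 Slc8a1 UMIs per 10000 UMIs of a nucleus. The 1364 nuclei at or above that limit (44.3% of the members, 41.2% to 49.1% per library) are called Slc8a1-high, and the other 1712 Slc8a1-low. Trpv5 had a UMI in 34.2% of the Slc8a1-high nuclei, in 1.4% of the Slc8a1-low nuclei and in 0.568% of the proximal-marker nuclei. Calb1 had one in 93.6%, 54.2% and 6.38% of these 3 sets, and Scnn1g in 32.2%, 4.56% and 2.02%. In the nuclei with at least 3 Slc12a3 UMIs that failed the rest of the rule, Trpv5, Calb1 and Scnn1g had a UMI in 0.305%, 12.3% and 0.407%. The rule itself kept these genes low there. The DCT2 markers other than Slc12a3 and Slc8a1 were thus found mainly in the Slc8a1-high nuclei. The Slc8a1-low nuclei stood between these sets, and the name DCT2 did not hold for them as a whole.

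Several genes of the calcium reabsorption list that the rule did not use were higher at higher Slc8a1, as were Calb1 and Trpv5, while others were level or lower. The values below go from the 611 nuclei with 4 to 16 Slc8a1 UMIs per 10000, through 940 with 256 to 1024, to 186 with 1024 or more. In these 3 bins Calb1 stood at 1.97, 23.5 and 36.5 UMIs per 10000 and Trpv5 at 0.0113, 1.04 and 1.57. S100g, the smaller intestinal-type calcium buffer, stood at 0.354, 1.32 and 2.08 UMIs per 10000. The levels of both buffers were thus several times higher at the upper end, as was the entry channel. Kl, the FGF23 co-receptor klotho, went from 4.05 to 14.1 and 20.7, and Vdr, the vitamin D receptor, from 2.72 to 7.1 and 8.75. The plasma membrane calcium pump Atp2b4 went from 1.05 to 3.18 and 3.69 and Pth1r, the parathyroid hormone receptor, from 0.704 to 1.64 and 2.15. The related pump Atp2b1 showed no such increase, at 2.14, 1.78 and 1.8, nor did Fgfr1, the receptor that pairs with klotho, at 1.14, 1.13 and 1.02. Casr, the calcium-sensing receptor, ran the other way, at 1.2, 0.516 and 0.307. Of the sodium channel subunits, Scnn1b went from 0.303 to 2.06 and 2.78 UMIs per 10000 and Scnn1g from 0.0764 to 1.25 and 2, while Scnn1a stayed within 1.21 to 1.76 over all 6 bins.

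Slc12a3, itself a gene of the gate, stood at 164.9, 167, 164.2, 150.4 and 133.6 UMIs per 10000 in the 5 bins from 4 upward. Wnk1, the kinase whose kidney form acts on Slc12a3, went from 41.8 to 60.8 and 67.6 over the same 3 bins, and Klhl3, which targets WNK kinases for degradation, stood at 18.9, 18.6 and 18. Trpm6, the luminal magnesium channel, was highest in the middle of the range at 21.3 UMIs per 10000 (64 to 256 Slc8a1 UMIs per 10000) and stood at 13.8 in the bin from 4 to 16 and at 15.5 in the last bin. Egf, the magnesiotropic growth factor made in the early distal convoluted tubule, went the other way, from 36.3 to 12.2 and 3.13. Trpm7, the broadly expressed relative of Trpm6, went from 26 to 9.55 and 5.36 and Umod, a marker of the preceding thick ascending limb, from 3.84 to 1.27 and 0.695. Markers of other cells were lower along the same bins, with Slc12a1 of the thick ascending limb at 8.38, 4.93 and 1.61 and the proximal tubule genes Slc34a1 at 6.42, 4.09 and 1.68, Slc5a12 at 2.62, 1.8 and 0.598 and Hnf4a at 0.503, 0.376 and 0.113, and their part in the gradient was not tested. Pvalb, a calcium buffer of the early distal convoluted tubule, was low throughout, at 0.272, 0.102 and 0.0162. The share of called doublets was 11.5% in the bin from 4 to 16, 6.91% in that from 256 to 1024 and 0.538% above, and its part in the gradient was not tested.

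**Figure D1:**
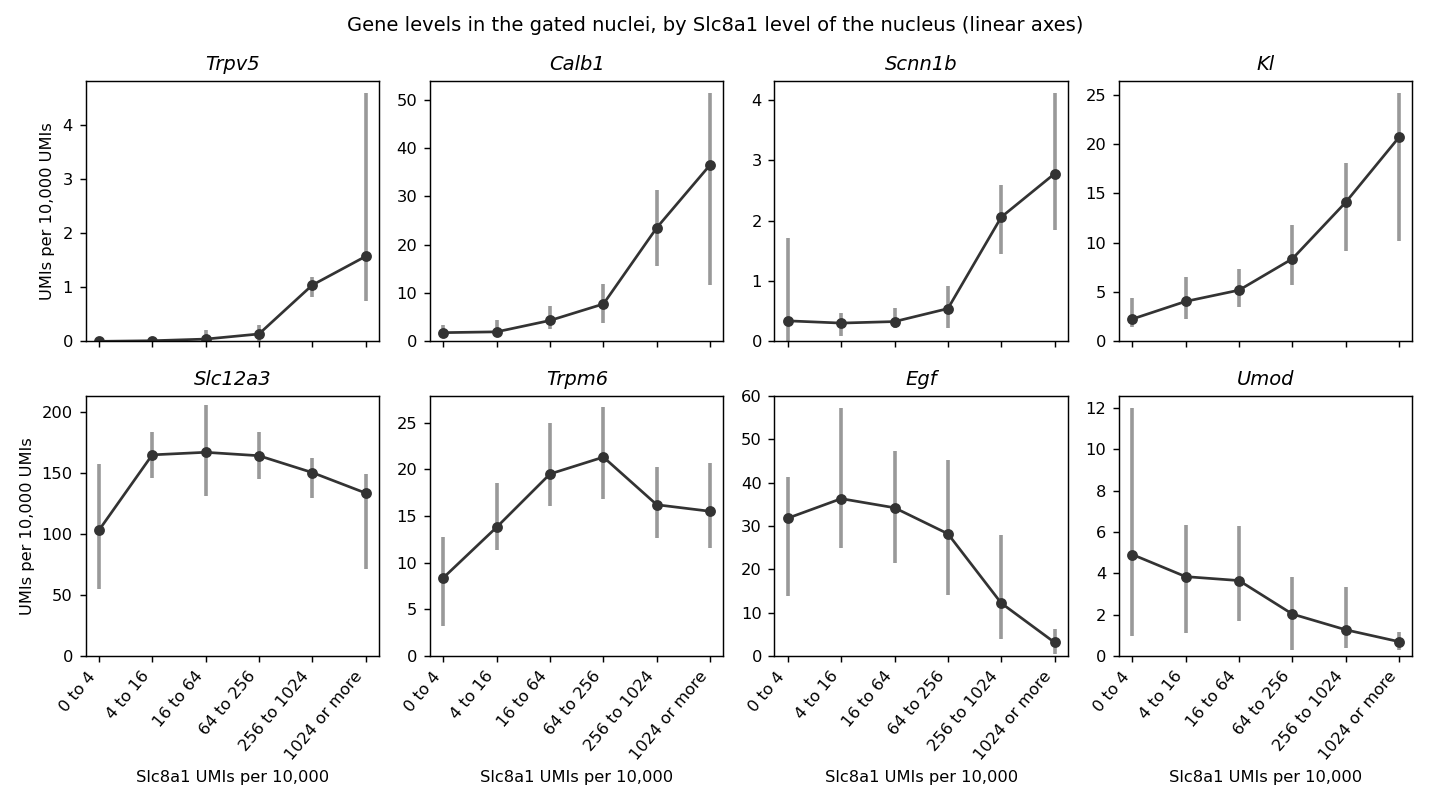
UMIs per 10000 UMIs (y axis) of 8 genes in the gated nuclei divided into 6 bins by their Slc8a1 UMIs per 10000 (x axis), with points for all nuclei of a bin and grey bars for the range over the 8 libraries. Trpv5, Calb1, Scnn1b and Kl are higher to the right, Egf and Umod go from 36.3 to 3.13 and from 3.84 to 0.695 between the second and the last bin, Trpm6 is highest in the middle, and Slc12a3 lies between 133.6 and 167 from the second bin on, lowest in the last.

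Transcripts that mark other cells were lower in the gated nuclei than in the remaining nuclei of the same library, but not absent. The 5 proximal tubule markers (Lrp2, Slc34a1, Slc5a12, Slc7a13, Hnf4a) summed to 9.37 to 15.2 UMIs per 10000 across libraries against 40.9 to 61.5 in all other nuclei, and the 5 thick ascending limb markers (Slc12a1, Umod, Ptger3, Cldn16, Cldn10) to 3.78 to 14.5 against 25.4 to 43.7. Endothelial markers summed to 0.749 to 2.15, stromal markers to 0.17 to 0.42, immune markers to 0.112 to 0.363 and podocyte markers to 0.0386 to 0.319 UMIs per 10000, with Cdh5, Col1a1, Col3a1, C1qa, C1qb and Nphs1 near 0. Markers of connecting tubule and principal cells summed to 1.4 to 2.02, with Aqp3 and Avpr2 near 0. Results were therefore also computed in the 2705 gated nuclei that held few of these transcripts (fewer than 3 UMIs of intercalated, endothelial, stromal, immune or podocyte markers, and under 0.5% of their UMIs on proximal or thick ascending limb markers), a set added after the values were seen. The limit of 0.5% lay above the sums of both lists in the gated nuclei, so such transcripts remained in this set.

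To place the gated nuclei among their neighbors, they were set beside the 983 other nuclei with at least 3 Slc12a3 UMIs and beside 2678 nuclei with no Slc12a3 UMI but with Slc8a1 and Scnn1g. All 3 sets were cut on the same counts, so log2 differences with their standard errors over the 8 libraries are given and no p. Levels are counts per 1000000 mRNA UMIs of a library (CPM, with edgeR's TMM scaling), which are not per transcript length and so compare libraries or sets, never genes. By edgeR's quasi-likelihood test, 1872 of 11340 genes (16.5%, with 6.47% higher and 10% lower) passed the threshold against the other Slc12a3 nuclei and 4656 of 11829 (39.4%, with 18.6% higher and 20.8% lower) against the Slc12a3-negative nuclei, counts that are given as a description, here and for the lists, because the gates formed the sets. The first count was 737 when Slc12a3 had to reach 5 UMIs in both sets, which left out 23.5% of the comparison nuclei.

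Against the other Slc12a3 nuclei, the calcium list without the genes of the rule had a median difference of 1.24 on the log2 scale against 0.00 over all genes, with 6 of its 9 tested members higher and 1 lower, beside the 6.47% and 10% over all genes. Kl lay between 820.4 and 1580 CPM in the gated nuclei and between 204.9 and 379.6 in the other Slc12a3 nuclei, a log2 difference of 1.92 ± 0.08 (SE). Vdr differed by 1.24 ± 0.07, Atp2b4, a plasma membrane calcium pump, by 1.63 ± 0.13 and S100g by 1.54 ± 0.15. Casr, the calcium-sensing receptor, was the member that was lower (−0.68 ± 0.13). The sodium channel subunit Scnn1b was higher by 2.77 ± 0.13, at 116.6 to 163.5 CPM against 17.4 to 26.4, in a list of sodium channel and aldosterone response genes that went both ways, with 4 of 14 higher, 3 lower (Klf9, Nr3c1 and Prss8) and a median of 0.07. Of the NaCl cotransport list, 9 of 18 members were higher and 0 lower, among them Wnk1 by 0.77 ± 0.08, with a list median of 0.27. Magnesium genes split, with Trpm6 higher by 1.09 ± 0.12 and Cnnm2, which is required for magnesium transport, by 1.27 ± 0.09, while Egf was lower (−0.36 ± 0.08) and Umod as well (−0.58 ± 0.08). Genes outside the lists included Egfem1 (5.28 ± 0.19), Slc2a9, a urate transporter (3.68 ± 0.20), the beta-defensin Defb1 (1.70 ± 0.10) and the lncRNA AI838599 (3.69 ± 0.19), and the lncRNA Pvt1 was lower (−1.63 ± 0.15).

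Against the Slc12a3-negative nuclei with Slc8a1 and Scnn1g, the gated nuclei had more Trpm6, Egf, Klhl3 and Wnk1 RNA and less Hsd11b2, Scnn1b and Sgk1 RNA. Of the magnesium genes, 8 of 13 were higher and 3 lower, beside 18.6% and 20.8% over all genes, with a list median of 0.96, led by Trpm6 (3.64 ± 0.13) and Egf (3.15 ± 0.14). Klhl3 was higher by 2.71 ± 0.09 and Wnk1 by 2.10 ± 0.11. The transcription factor Esrrb, of the estrogen-related receptors, stood at 568 to 791.7 CPM against 21.7 to 49, a log2 difference of 4.20 ± 0.08, and Fgf13, a modulator of sodium channels, differed by 6.40 ± 0.10. Of the list of sodium channel and aldosterone response genes, 7 of 14 were lower and 5 higher (Fkbp5, Klf9, Nr3c1, Tsc22d3 and Usp2), with a median of −0.32, so the list went both ways. Hsd11b2, the enzyme that shields the mineralocorticoid receptor from glucocorticoids, stood at 7.43 to 28.2 CPM in the gated nuclei against 233.8 to 574.6 (−4.40 ± 0.08). Scnn1b was lower by 2.44 on the log2 scale, at 116.6 to 163.5 against 636 to 838.1 CPM, so the gated nuclei lay between the 2 neighbors in this subunit. Sgk1, an aldosterone-induced kinase, was also lower (−1.70 ± 0.21).

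**Figure D2:**
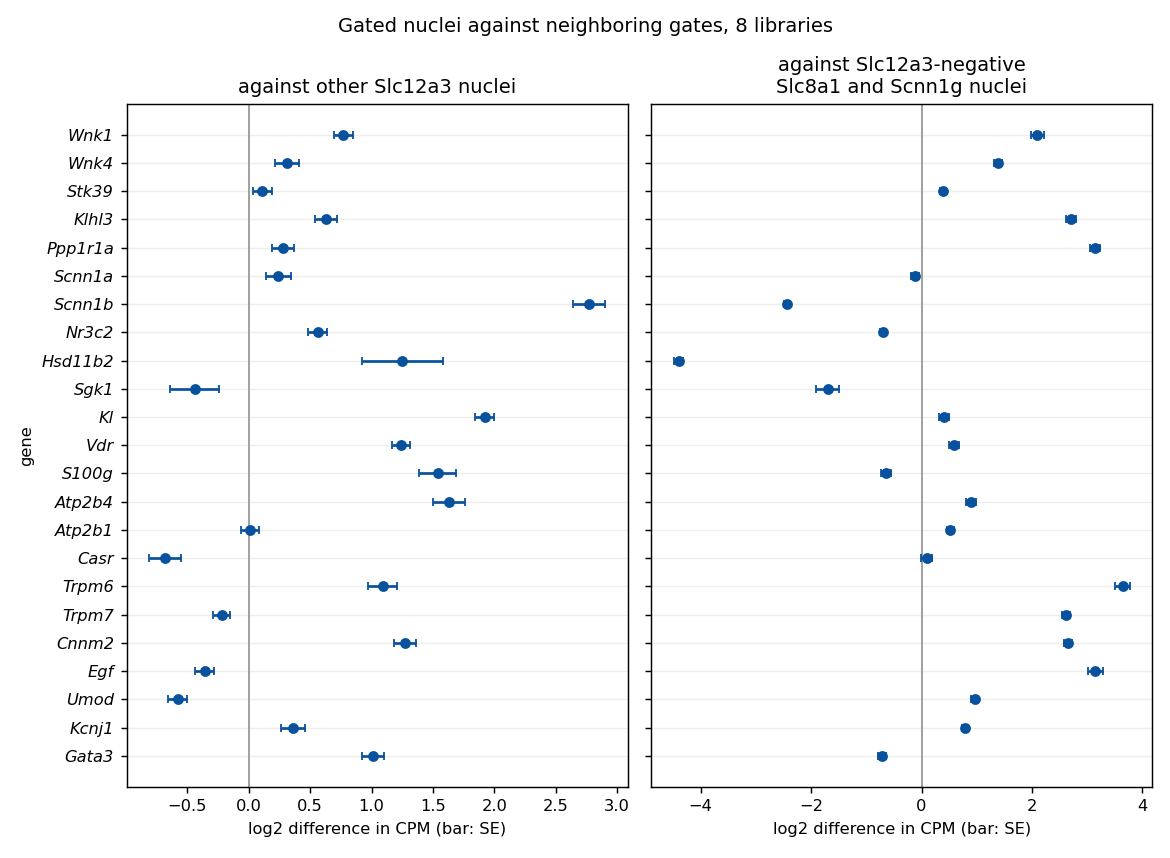
Log2 difference ± SE (x axis) of 23 listed genes (y axis) between the gated nuclei and, in separate panels, the other Slc12a3 nuclei and the Slc12a3-negative nuclei with Slc8a1 and Scnn1g, from fits over 8 libraries with the library as a block. Scnn1b lies at 2.77 against the first and at −2.44 against the second, Kl at 1.92 against the first, and Hsd11b2 at −4.40 against the second.

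The targeted gene was read first in every library. Arntl (ENSMUSG00000055116) stood at 88.1 and 46.7 CPM in Ctrl at ZT4, at 114.6 and 147.4 in Ctrl at ZT16, at 400.8 and 328 in cKOt at ZT4 and at 441.1 and 381.8 in cKOt at ZT16. Its RNA was thus higher in all 4 cKOt libraries than in all 4 Ctrl libraries. Reads from outside the floxed part are counted with the rest, so this level checks no genotype label.

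In Ctrl mice, the genes that changed with time of day included 6 clock genes and no gene of the transport lists. At ZT16 against ZT4, 42 of 13050 genes tested changed (0.322%), 22 of them higher and 20 lower, by edgeR's quasi-likelihood test with Benjamini-Hochberg adjustment, which gives all adjusted p-values below. Of 20 clock genes, 17 were tested, of which 4 rose, among them Cry1, Per2 and Bhlhe40, and 2 fell, Nr1d1 and Nr1d2, with a list median log2 change of 0.49 against 0.00 over all genes. In the 2705 nuclei with few other markers the count was 103 (0.843% of those tested), and 36 of the 42 genes were among them, and a further clock gene, Hlf, passed there (1.19, adjusted p = 0.0291). The count was 14 or 15 when any 1 of the 4 Ctrl libraries was left out, and 90 or 85 without replicate 1 or 2 of cKOt at ZT4.

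Cry1 (ENSMUSG00000020038), a repressor of the clock, had 3.8 and 2.43 CPM in Ctrl at ZT4, 51.1 and 52.8 in Ctrl at ZT16, 81.2 and 44 in cKOt at ZT4 and 66.1 and 64.9 in cKOt at ZT16. Low values were found in Ctrl at ZT4 alone, and the range of cKOt at ZT4 spanned both groups at ZT16, of which cKOt was the higher. The rise in Ctrl was 4.06 ± 0.40 on the log2 scale (SE, adjusted p = 3.20e-04). Per2 (ENSMUSG00000055866), another repressor, stood at 30.4 and 27.3, 202.6 and 144, 136.1 and 78.4, and 146.5 and 95.3 CPM in the groups in that order, again lowest in Ctrl at ZT4, with a rise of 2.58 ± 0.29 (adjusted p = 0.00146).

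Nr1d2 (ENSMUSG00000021775), the nuclear receptor REV-ERB beta that represses Arntl, ran opposite, with 111.6 and 154.3 CPM in Ctrl at ZT4, 38.6 and 40.1 in Ctrl at ZT16, 19.4 and 19.3 in cKOt at ZT4 and 8.65 and 9.14 in cKOt at ZT16. No group overlapped another, and both Ctrl groups lay above both cKOt groups. It fell by 1.77 on the log2 scale with time in Ctrl (SE 0.21, adjusted p = 0.00179). Its relative Nr1d1 rested on few molecules, 20 and 45 UMIs in Ctrl at ZT4 and 2 in each library at ZT16 (log2 change −3.90 ± 0.70, adjusted p = 0.0383). Bhlhe40, a repressor that competes for E-boxes, rose from 20.3 and 15.6 to 69 and 55.1 CPM (1.79 ± 0.26, adjusted p = 0.00761). Of 27 genes followed under the omission of each library in turn, 4 passed the threshold each time, among them Cry1, Per2 and Nr1d2, while Nr1d1 missed it in 4 of the 8 omissions and Bhlhe40 missed it without replicate 2 of Ctrl at ZT4 (1.60) or replicate 1 of Ctrl at ZT16 (1.61).

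**Figure D3:**
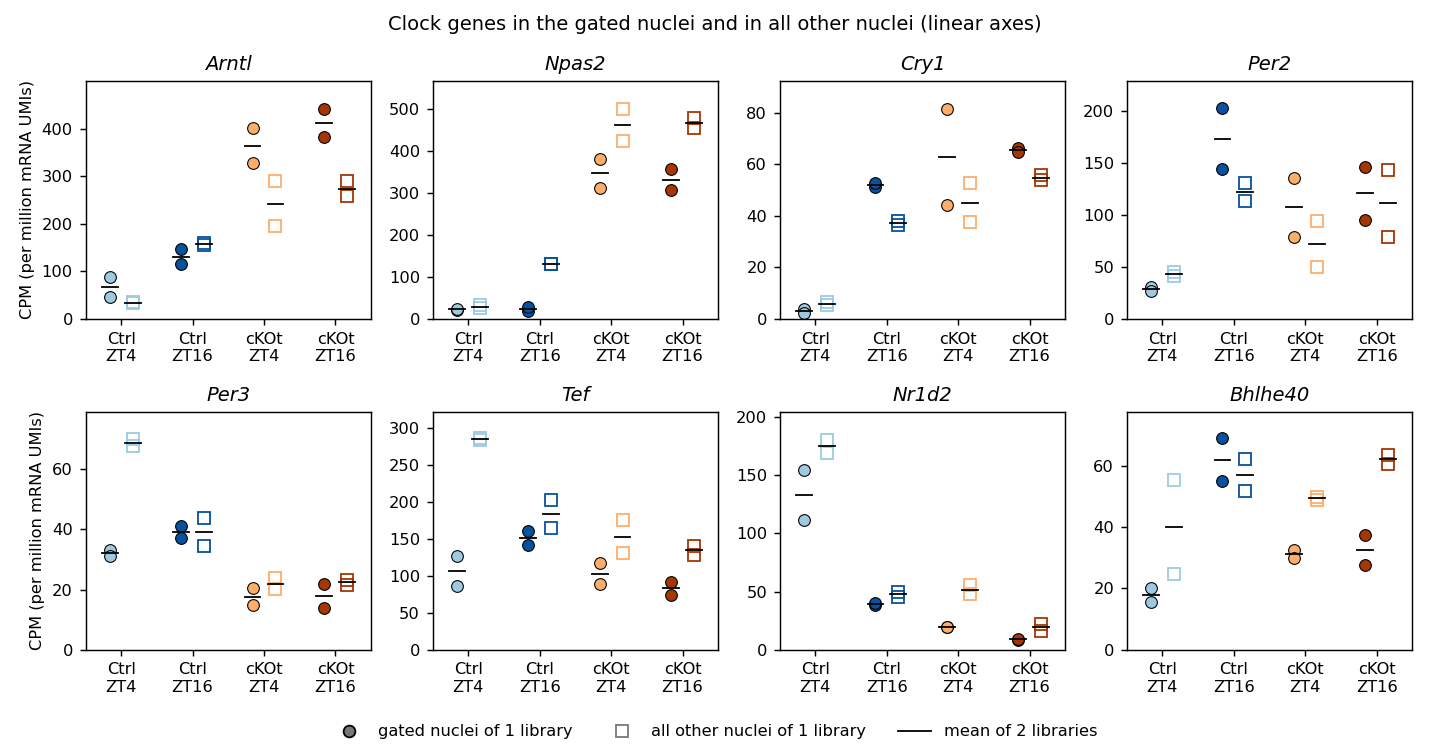
CPM (y axis) of 8 clock genes in each library, grouped along the x axis by genotype and Zeitgeber time, with filled circles for the gated nuclei, open squares for all other nuclei and lines for the mean of 2 libraries. Cry1 and Per2 are lowest in Ctrl at ZT4, and Npas2 in the gated nuclei lies at or under 28.1 in all 4 Ctrl libraries while the other nuclei rise from 25.3 and 33.6 at ZT4 to 130.1 and 129.6 at ZT16.

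Promoter windows of the clock genes that passed a test are shown. Clock genes are known to be driven through E-boxes and through the elements that the Nr1d receptors bind. The letters searched were CACGTG, the E-box bound by BMAL1 pairs, and TNGGTCA. In TNGGTCA, N stands for any base, which makes it a looser pattern than the receptor element. The windows reach from 250 bases before to 50 after the annotated start and come from RefSeq on build GRCm38.p6. Of 8 such genes, 5 had a window, and of these only Cry1 held CACGTG and only Arntl held TNGGTCA, with both strands searched. Arntl had 2 windows, both with a match, of which 1 is shown. A match describes these letters and is not a measured site. The marked Arntl letters, TTGGTCA and TCGGTCA, hold T or C at the open base, and whether either is a receptor element was not tested. Of all 32851 windows of this length, 7.15% held CACGTG and 11% held TNGGTCA. The Cry1 window lies on the minus strand at chr10:85185005-85185304 and the Arntl window shown on the plus strand at chr7:113207215-113207514, with the matches in capitals.
Cry1: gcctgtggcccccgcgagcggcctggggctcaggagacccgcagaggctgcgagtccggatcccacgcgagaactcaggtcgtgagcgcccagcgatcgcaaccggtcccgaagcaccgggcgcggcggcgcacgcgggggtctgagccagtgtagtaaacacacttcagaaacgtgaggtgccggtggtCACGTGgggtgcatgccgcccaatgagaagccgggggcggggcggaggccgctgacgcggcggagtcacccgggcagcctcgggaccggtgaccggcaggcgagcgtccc
Arntl: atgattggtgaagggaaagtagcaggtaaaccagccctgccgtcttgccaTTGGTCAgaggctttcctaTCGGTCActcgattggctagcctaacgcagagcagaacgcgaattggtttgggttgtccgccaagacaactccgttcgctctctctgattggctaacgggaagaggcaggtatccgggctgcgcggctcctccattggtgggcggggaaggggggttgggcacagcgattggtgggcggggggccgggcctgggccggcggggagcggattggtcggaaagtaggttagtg

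Outside the clock, Rhobtb1, Arhgef3, Scd2 and Msmo1 were among the genes that rose with time in Ctrl, and Bach2, Mettl27 and Myo3b among those that fell. Rhobtb1, an atypical GTPase with a BTB domain, stood at 39.9 and 54.5 CPM in Ctrl at ZT4, 141.8 and 213.9 in Ctrl at ZT16, 251 and 382.2 in cKOt at ZT4 and 320.6 and 272.1 in cKOt at ZT16, a rise of 1.89 ± 0.26 in Ctrl (adjusted p = 0.00477). It was lowest in Ctrl at ZT4, and cKOt lay above Ctrl at both times. Its level in the other nuclei was far higher, 197.1 to 1570 CPM, and in the gated nuclei with few other markers it was lower, at 21.9 and 20.8, 69.7 and 130.6, 131.1 and 146.1, and 152.7 and 135.9 in the groups in that order (2.22 with time in Ctrl, adjusted p = 2.20e-04). A difference of its time effect from that of the other nuclei was not detected (−0.10 ± 0.26, adjusted p = 0.925), and the part of transcripts from other cells was not tested. Bach2, a transcriptional repressor, had 201.6 and 224.8 CPM in Ctrl at ZT4 and 54.3 and 96.4 at ZT16 (−1.51 ± 0.22, adjusted p = 0.00924). In cKOt it had 178.9 and 192.7 at ZT4 and 77.8 and 61.4 at ZT16 (−1.41 ± 0.22 in cKOt, adjusted p = 0.0288). The times did not overlap in either genotype, which the rule for named genes required. Mettl27, a predicted methyltransferase, fell in the same way, from 50.1 and 46.7 to 11.4 and 10.3 CPM in Ctrl (−2.15 ± 0.28, adjusted p = 0.00368) and from 30.3 and 42.9 to 11.2 and 9.58 in cKOt (−1.81 ± 0.28, adjusted p = 0.0288). Myo3b, an unconventional myosin, had 200.3 and 144.1 CPM in Ctrl at ZT4 and 74.4 and 71.7 at ZT16 (−1.24 ± 0.19, adjusted p = 0.0119), against 151.5 to 187.9 in all 4 cKOt libraries. Wwox and Bcas3 fell by 0.90 and 0.95 on the log2 scale (adjusted p = 0.0174 and 0.0106). These genes did not all keep the call when a Ctrl library was left out: Rhobtb1 missed it without replicate 1 at ZT4 (1.71) or 2 at ZT16 (1.56), Bach2 without replicate 2 at ZT4 (−1.44) or 1 at ZT16 (−1.17) and Mettl27 without replicate 2 at ZT16 (−2.09). Myo3b missed it in 3 omissions (−0.97 without replicate 1 at ZT4, −1.28 and −1.22 without replicate 1 or 2 at ZT16), and Wwox and Bcas3 in 4 and 3, with log2 changes from −0.96 to −0.84 and from −1.04 to −0.88.

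Arhgef3, a guanine nucleotide exchange factor, had 529.3 and 507.6 CPM in Ctrl at ZT4 and 856.6 and 910.8 at ZT16, and 650 and 609.9 in cKOt at ZT4 and 1075 and 1101 at ZT16. Its rise was 0.76 ± 0.14 in Ctrl (adjusted p = 0.036) and 0.80 ± 0.14 in cKOt (adjusted p = 0.0373), with no overlap between times in either genotype. Scd2, a fatty acid desaturase, had 72.3 and 86.1 CPM in Ctrl at ZT4 and 220 and 154.3 at ZT16 (1.23 ± 0.20, adjusted p = 0.0161), and 52 and 43.5 against 126.7 and 112.8 in cKOt (1.33 ± 0.21, adjusted p = 0.0288). Of sterol synthesis, Msmo1 rose from 15.8 and 22.4 to 52.1 and 52.2 CPM in Ctrl (1.42 ± 0.25, adjusted p = 0.0336). With 1 library left out, the time effect in Ctrl ranged from 0.71 to 0.81 for Arhgef3, 0.94 to 1.46 for Scd2 and 1.22 to 1.70 for Msmo1, and each missed the threshold in 3 or more of the 8 omissions. These lipid genes and Arhgef3 lay outside the rule for named genes and were chosen after their values were seen.

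At ZT4, deletion of Bmal1 in the tubule went with higher Npas2, Cry1, Per2 and Arntl RNA and lower Nr1d2 RNA. In all, 25 of 12997 genes changed in cKOt against Ctrl (0.192%), 18 higher and 7 lower, and the median of the 17 tested clock genes was 0.80 on the log2 scale against −0.00 over all genes. This contrast and that of time in Ctrl share the Ctrl libraries at ZT4, so a low level there enters both. In the nuclei with few other markers 27 genes changed (0.222%), 19 of them among the 25. Without replicate 1 or 2 of Ctrl at ZT4 the count was 8 or 11, and without replicate 1 of cKOt at ZT4 it was 51.

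Npas2 (ENSMUSG00000026077), the alternative partner of BMAL1, had 22.2 and 23.4 CPM in Ctrl at ZT4, 19 and 28.1 in Ctrl at ZT16, 381.3 and 312.4 in cKOt at ZT4 and 357.2 and 306.5 in cKOt at ZT16. The genotypes were far apart at both times and time made little difference within either. It was higher in cKOt by 3.90 ± 0.21 at ZT4 (adjusted p = 2.60e-07) and by 3.82 ± 0.21 at ZT16 (adjusted p = 3.34e-07), and the time difference in Ctrl was 0.03 (adjusted p = 0.972). With the CPM given above, Cry1 was higher in cKOt at ZT4 by 4.31 ± 0.39 (adjusted p = 5.80e-05), Arntl by 2.43 ± 0.24 (1.58e-04) and Per2 by 1.88 ± 0.30 (0.0146), and Nr1d2 was lower by 2.80 (0.23, 2.11e-05). At ZT16, 3 of the 15 clock genes tested differed, with Npas2 and Arntl (1.65 ± 0.23, adjusted p = 0.00641) higher and Nr1d2 lower (−2.13 ± 0.27, adjusted p = 0.00296). In the nuclei with few other markers Per3 (−1.48, adjusted p = 0.029) and Tef (−0.95, adjusted p = 0.0378) were lower as well. Npas2 passed the threshold at both times under every omission of a library, and Cry1, Arntl and Nr1d2 did so at ZT4, where Per2 missed it in 3 (1.43 to 2.21 over all 8). At ZT16 Arntl and Nr1d2 missed it without replicate 1 or 2 of cKOt at ZT16 (Arntl 1.54 and 1.75, Nr1d2 −2.10 and −2.18), and Arntl also without replicate 1 of Ctrl at ZT16 (1.49).

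At ZT16, 25 of 13134 genes differed between cKOt and Ctrl (0.19%), 14 higher and 11 lower, and the median of the tested clock genes was −0.02 against 0.00 over all genes. Of the 25, 23 also passed in the nuclei with few other markers, where 33 genes did (0.269%). The count was 4 without replicate 1 of cKOt at ZT16 and 7 without replicate 2 of that group or replicate 1 of Ctrl at ZT16. Rnf150 (ENSMUSG00000047747), of a family of membrane-bound ubiquitin ligases, had 32.3 and 43.8 CPM in Ctrl at ZT4, 16.8 and 25.2 in Ctrl at ZT16, 117.8 and 118.6 in cKOt at ZT4 and 150.1 and 158.9 in cKOt at ZT16. All cKOt libraries lay above all Ctrl libraries. The difference was 1.60 ± 0.21 at ZT4 (adjusted p = 0.00328) and 2.88 ± 0.22 at ZT16 (adjusted p = 1.72e-05), and the first missed the threshold without replicate 1 of Ctrl at ZT4 (1.43).

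Phactr1, which binds actin and protein phosphatase 1, had 2787 and 3365 CPM in Ctrl at ZT4, 5519 and 5896 in Ctrl at ZT16, 2085 and 1916 in cKOt at ZT4 and 2744 and 2810 in cKOt at ZT16. The Ctrl libraries at ZT16 stood above all others. It was lower in cKOt at ZT16 by 1.04 on the log2 scale (SE 0.15, adjusted p = 0.00641) and higher at ZT16 than at ZT4 in Ctrl by 0.88 ± 0.15 (adjusted p = 0.0174), a call with time that was lost in 3 of the 8 omissions (0.77 to 1.02 over all 8). Klk1, the tissue kallikrein that distal tubules secrete, had 294.1 and 316.8 CPM in Ctrl at ZT4, 584.5 and 396.3 in Ctrl at ZT16, 132.6 and 157.3 in cKOt at ZT4 and 201 and 212 in cKOt at ZT16. It was lower in every cKOt library than in any Ctrl library, by 1.09 at ZT4 (SE 0.19, adjusted p = 0.0248) and 1.25 at ZT16 (SE 0.18, adjusted p = 0.00915). Pappa, the protease that cleaves IGF-binding proteins, had 224.9 and 265 CPM in Ctrl and 82.4 and 104.5 in cKOt at ZT16 (−1.38 ± 0.22, adjusted p = 0.0154), and 99.5 and 152.3 against 70.3 and 49.4 at ZT4. Myo3b, with the values above, was higher in cKOt at ZT16 by 1.13 ± 0.19 (adjusted p = 0.0237). Each of these 4 genes missed the threshold at ZT16 without replicate 1 or without replicate 2 of cKOt at ZT16, with log2 differences of −1.03 and −1.06 for Phactr1, −1.21 and −1.29 for Klk1, −1.23 and −1.58 for Pappa and 1.05 and 1.20 for Myo3b. Without replicate 1 of Ctrl at ZT16 this was also the case for Klk1 (−0.93), Pappa (−1.49) and Myo3b (1.17), and without replicate 2 for Pappa (−1.26) and Myo3b (1.10), and at ZT4 Klk1 missed the threshold in 5 of the 8 omissions (−1.24 to −0.97).

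Other genes lower in cKOt were Adamts16, a metalloprotease (204.8 and 152.8 against 65.7 and 62.8 CPM at ZT4, −1.49 ± 0.21, adjusted p = 0.00493), and Cables1, a binder of cyclin-dependent kinases (562.9 and 504.7 against 303.6 and 302.2 at ZT4, −0.83 ± 0.15, adjusted p = 0.0321). At ZT16 these were Nampt, the rate-limiting enzyme of NAD salvage (246.6 and 316 against 126.2 and 143.2 CPM, −1.06 ± 0.16, adjusted p = 0.0138), and the retrotransposon-derived Rtl4 (370.5 and 509.9 against 160.3 and 149.3 CPM, −1.51 ± 0.18, adjusted p = 0.00198). Antxr1, an anthrax toxin receptor that binds collagen, was higher in cKOt at ZT16, at 183.7 and 158.5 against 67.4 and 81.4 CPM (1.20 ± 0.17, adjusted p = 0.00679). These genes were named only where the groups did not overlap, so the lack of overlap in these comparisons follows from the selection. Adamts16 missed the threshold without replicate 1 of Ctrl at ZT4 (−1.25), Rtl4 without replicate 2 of cKOt at ZT16 (−1.46), Cables1 in 6 omissions (−0.91 to −0.74) and Nampt and Antxr1 in 3 each (−1.22 to −0.87 and 1.08 to 1.34). Vmn1r32, annotated as a vomeronasal receptor, had 0 UMIs in the 4 Ctrl libraries and 12 and 24.2 CPM in cKOt at ZT4 and 12.7 and 10 at ZT16, at least 22.2-fold and at least 13.5-fold higher than a floor of 3 counts over the Ctrl group. In the other nuclei Vmn1r32 had 0 to 0.0287 CPM in Ctrl and 7.52 to 11.9 in cKOt. Its call was lost without replicate 1 or 2 of Ctrl at ZT4 in the first case and in 4 of the 8 omissions in the second.

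**Figure D4:**
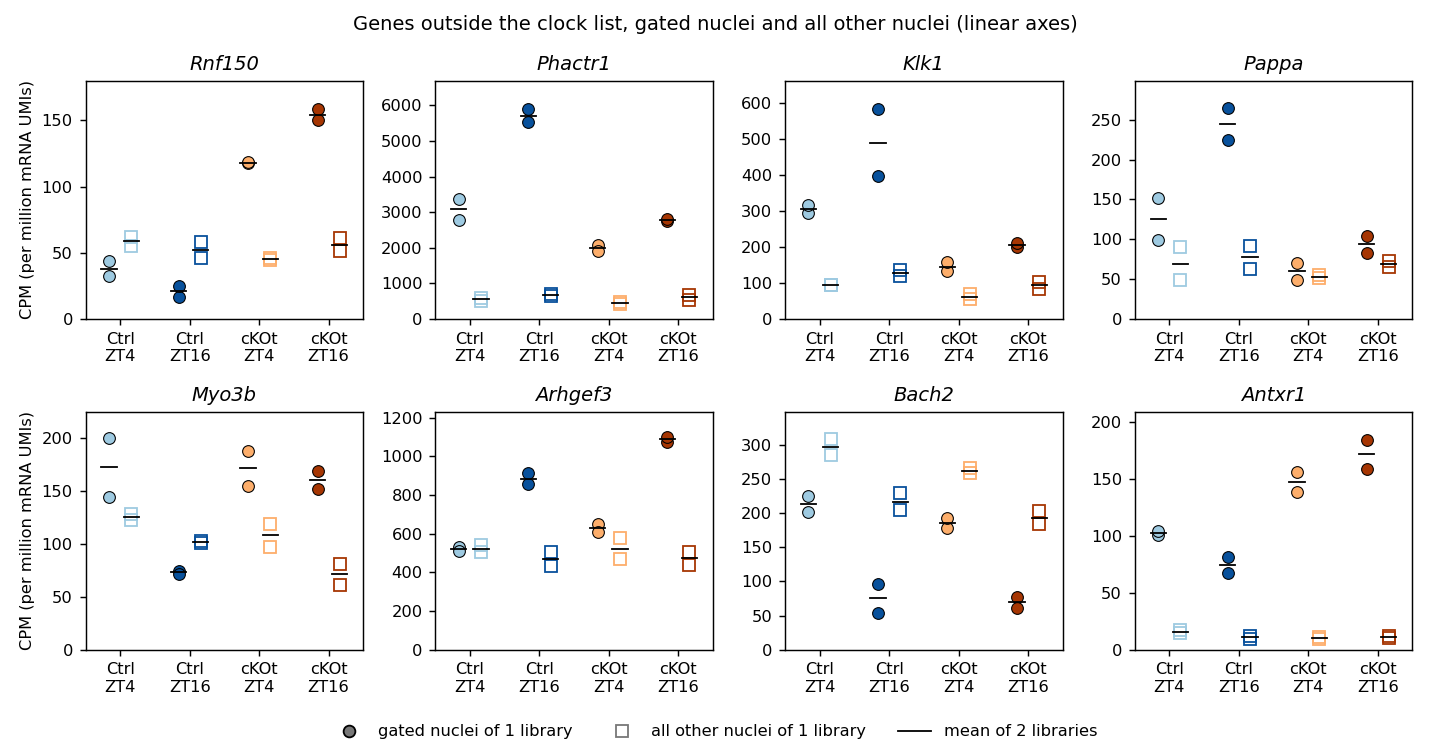
CPM (y axis) of 8 genes outside the clock in each library, grouped along the x axis by genotype and Zeitgeber time, with filled circles for the gated nuclei, open squares for all other nuclei and lines for the mean of 2 libraries. Rnf150 lies between 117.8 and 158.9 in the gated cKOt nuclei and at or under 62.2 everywhere else, and Arhgef3 reaches 1101 at ZT16 in the gated nuclei while the other nuclei stay between 430.1 and 576.3.

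Cyp2a4 and Slc7a12, which are known from the proximal tubule, were also called between genotypes. Cyp2a4, a steroid hydroxylase, had 12.7 to 26.1 CPM in Ctrl and 1.14 to 3.56 in cKOt gated nuclei (log2 difference −3.18 at each time, adjusted p = 0.03 and 0.0168). The other nuclei showed a like difference, with 26.3 to 29.7 CPM in Ctrl and 2.7 to 5.01 in cKOt, and a difference from them was not detected (0.09, adjusted p = 0.993 at ZT4, and −0.41, adjusted p = 0.946 at ZT16). It missed the threshold in 4 of the 8 omissions at ZT4 (−3.92 to −2.69), in 3 at ZT16 (−4.01 to −2.61) and, at ZT4, without called doublets (−2.95, adjusted p = 0.0546). Slc7a12, an amino acid transporter, had 63.1 and 30 CPM in cKOt at ZT16 against 0 and 1.72 in Ctrl, a ratio of 54.3 with a counting interval of 18.3 to 265.7. In the other nuclei it had 78.1 and 44.1 against 2.33 and 4.33 CPM at ZT16, and a difference from them was not detected (1.59, adjusted p = 0.844). Slc7a12 missed the threshold without replicate 1 of Ctrl or of cKOt at ZT16, with log2 differences of 4.70 to 9.46 over the omissions, and without called doublets (4.21, adjusted p = 0.0938). A single nucleus held up to 87.1% of its UMIs in a library. The proximal markers summed to between 9.37 and 15.2 UMIs per 10000 in the gated nuclei, as given above, and in the nuclei with few of these markers both genes passed as well. There Cyp2a4 had 13.6 to 27.9 CPM in Ctrl and 1.1 to 3.21 in cKOt (−2.98 at ZT4, adjusted p = 0.0267, and −3.36 at ZT16, adjusted p = 0.00364), and Slc7a12 had 78.3 and 31.4 against 0 and 1.48 at ZT16 (adjusted p = 2.29e-04).

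In cKOt mice, ZT16 against ZT4 changed 22 of 13124 genes (0.168%), 11 higher and 11 lower, and none of the 16 clock genes tested was among them by edgeR (3 at an unadjusted p under 0.05, and none by DESeq2). The clock list median was −0.02 against 0.00 over all genes. Of the 22, 16 also passed in the nuclei with few other markers, where 47 did (0.382%). The changes that passed in both sets included Bach2, Mettl27, Scd2 and Arhgef3 above, and Hspa5 and Pdia3. Hspa5, the Hsp70 chaperone BiP of the endoplasmic reticulum, had 34.9 and 27.4 CPM in cKOt at ZT4 and 125.2 and 75.3 at ZT16 (1.69 ± 0.28, adjusted p = 0.0288), and in Ctrl 33.6 and 39.4 against 112.4 and 74. Pdia3, a protein disulfide isomerase, had 61.2 and 56.9 against 131.3 and 118.9 CPM in cKOt (1.09 ± 0.18, adjusted p = 0.0288), and in Ctrl 46.3 and 59.4 against 96.1 and 98.1. For both genes the libraries at ZT16 stood above those at ZT4 in either genotype, though only the cKOt contrast passed the threshold. Grin3a, a glutamate receptor subunit, rose from 17.2 and 22 to 111.9 and 91.4 CPM in cKOt (2.38 ± 0.37, adjusted p = 0.0288) and had 30.4 and 74.5 against 103.2 and 180.7 in Ctrl. The count fell to 4 without replicate 2 of cKOt at ZT4 or replicate 1 of cKOt at ZT16 and to 5 without replicate 2 of cKOt at ZT16, and of the 18 genes followed none passed under every omission.

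The time effect itself differed between genotypes for 3 of 13572 genes (0.0221%), among them Cry1 and Slc26a4, both with a smaller rise or a fall in cKOt. The interaction was −3.98 ± 0.48 for Cry1 (adjusted p = 0.00336), and that of Per2 was −2.40 (adjusted p = 0.0715). In the nuclei with few other markers 4 of 12771 genes passed (0.0313%), with Cry1 at −4.09 (adjusted p = 0.00233) and Per2 at −2.77 (adjusted p = 0.00183). DESeq2 also passed both genes (Per2 −2.41, adjusted p = 8.90e-05). Cry1 did not pass without replicate 2 of Ctrl at ZT4 (−3.66). The number of genes was 1 without that library, 14 without replicate 1 of cKOt at ZT4 and 5 without replicate 2 of cKOt at ZT4 or replicate 2 of Ctrl at ZT16. For the genes that passed in none of these fits, an effect that passed in 1 genotype and not in the other is not shown to differ.

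Slc26a4, the anion exchanger pendrin of intercalated cells, had 8.24 and 4.38 CPM in Ctrl at ZT4, 103.7 and 78 in Ctrl at ZT16, 30.3 and 83.2 in cKOt at ZT4 and 9.16 and 20.9 in cKOt at ZT16, an interaction of −5.76 ± 0.67 (adjusted p = 0.0031) and a rise in Ctrl of 3.87 ± 0.51 (adjusted p = 0.00381). Both missed the threshold without replicate 2 of Ctrl at ZT4 (−5.33 and 3.44) and without called doublets (−1.39 and 2.04). The other 4 intercalated markers (Slc4a1, Kit, Atp6v0d2, Atp6v1g3) summed to 0.0708 and 0.147, 0.394 and 0.512, 0.152 and 0.358, and 0.25 and 0.256 UMIs per 10000 in the groups in that order, with Slc4a1 near 0. Without Slc26a4, this sum was highest in both Ctrl libraries at ZT16 and in replicate 2 of cKOt at ZT4, and lowest in the Ctrl libraries at ZT4, and its part in the calls was not tested. A single nucleus held up to 51.8% of the Slc26a4 UMIs of a library, and 27 gated nuclei held at least 3 intercalated UMIs, Slc26a4 included. In the 2705 nuclei with few other markers Slc26a4 had 9.08 and 5.5, 9.75 and 14.8, 13.8 and 5.33, and 8.98 and 10.5 CPM, the rise in Ctrl was 0.76 (adjusted p = 0.545) and the interaction −0.77. Both Ctrl libraries at ZT16 still stood above both at ZT4, and the cKOt groups overlapped. Slc26a4 is itself among the markers by which those nuclei were left out.

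**Figure D5:**
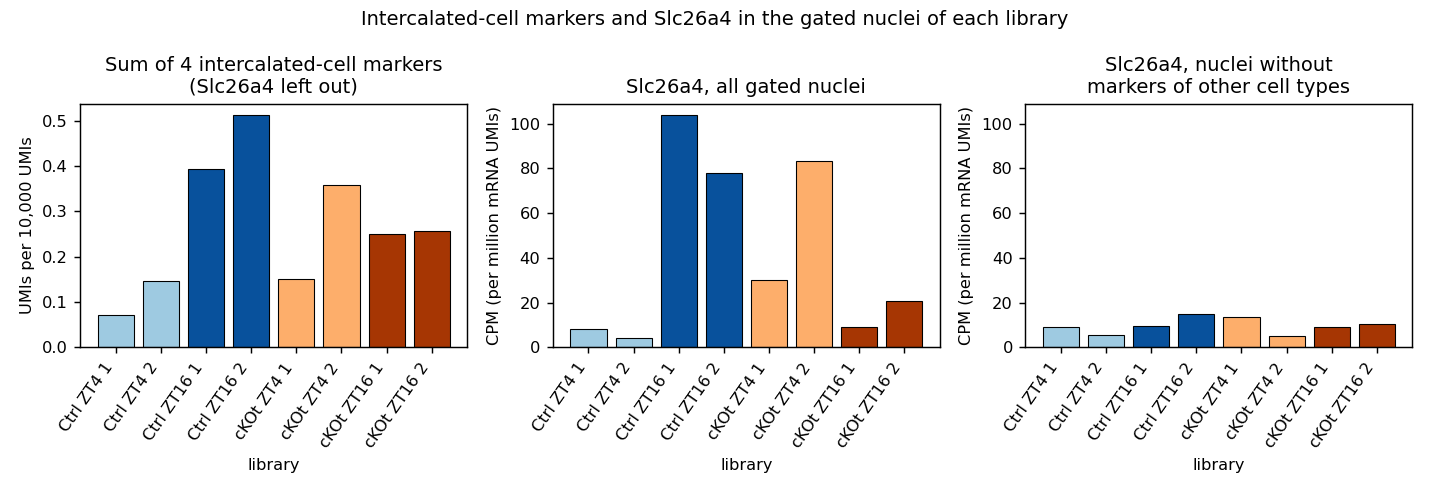
Bars for each of the 8 libraries (x axis) show the sum of 4 intercalated markers other than Slc26a4 in UMIs per 10000, the CPM of Slc26a4 in all gated nuclei and its CPM in the 2705 gated nuclei with few transcripts of other cells (y axes). Slc26a4 reaches 103.7 in all gated nuclei and 14.8 in the smaller set.

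Whether these changes differed from those of all other nuclei together, which are mostly of other cell types, was tested in a fit over the gated nuclei and all other nuclei of the same 8 libraries, with the library as a block, added after the values were seen. The composition of the other nuclei was not matched between libraries. The time effect in Ctrl differed for 37 genes (0.284% of those tested), the genotype effect for 21 at ZT4 (0.162%) and 8 at ZT16 (0.0609%), and the time effect in cKOt for 2 (0.0152%). With only the gated nuclei with few other markers, these counts were 73 (0.598%), 28 (0.23%), 16 (0.13%) and 11 (0.0893%). Npas2 stood at 25.3 and 33.6 CPM in the other nuclei of Ctrl at ZT4 and at 130.1 and 129.6 at ZT16, whereas it stayed at or under 28.1 in the gated nuclei (difference of the time effects −2.07 ± 0.24, adjusted p = 0.0042). Its genotype effect at ZT16 was accordingly larger in the gated nuclei, by 1.99 ± 0.18 (adjusted p = 1.71e-04). The time effect of Per2 was larger by 1.08 ± 0.18 (adjusted p = 0.0237) and that of Arntl smaller by 1.20 on the log2 scale (SE 0.22, adjusted p = 0.0341).

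Per3 and Tef, clock genes without a significant time effect in the gated nuclei, also differed from the rest. Per3 went from 67.6 and 70.2 CPM at ZT4 to 43.7 and 34.5 at ZT16 in the other nuclei of Ctrl and had 33 and 31.1 against 41.3 and 37.3 in the gated nuclei (difference 1.14 ± 0.21, adjusted p = 0.0387). Tef, a PAR-domain factor, went from 283.4 and 286.5 to 202.2 and 165 CPM in the other nuclei and had 85.6 and 127 against 141.8 and 161.2 in the gated nuclei (1.17 ± 0.19, adjusted p = 0.0182). In both genes the direction between times was opposite in the 2 sets of nuclei.

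Among genes outside the clock, Rnf150 lay between 44.3 and 62.2 CPM in the other nuclei of all 8 libraries, and its genotype effect was larger in the gated nuclei by 2.04 ± 0.17 at ZT4 (adjusted p = 9.70e-05) and 2.80 ± 0.18 at ZT16 (adjusted p = 3.58e-06). Arhgef3 stayed between 430.1 and 576.3 CPM in the other nuclei, and the time effect was larger in the gated nuclei in both genotypes (0.95 ± 0.12 in Ctrl, adjusted p = 0.00551, and 0.93 ± 0.12 in cKOt, adjusted p = 0.0196). At ZT16 the genotype effects of Myo3b (1.67 ± 0.20, adjusted p = 0.00295), Phactr1 (−0.87 ± 0.12, adjusted p = 0.0109) and Pappa (−1.22 ± 0.18, adjusted p = 0.0195) also differed from those of the other nuclei. Levels in the neighboring sets are given by library, as a description with no test. Npas2 had 17.7 and 24 CPM in Ctrl at ZT4, 85.2 and 37.7 in Ctrl at ZT16 and 303.1 to 481.7 in cKOt in the other Slc12a3 nuclei. In the Slc12a3-negative nuclei it had 35.3 and 20.6, 53.8 and 65.7, and 337.4 to 354. In both sets every cKOt library stood above every Ctrl library, and within Ctrl both libraries at ZT16 stood above both at ZT4. Per2 in Ctrl went from 25.6 and 32.6 CPM at ZT4 to 153.1 and 116.1 at ZT16 in the other Slc12a3 nuclei. In the Slc12a3-negative nuclei Per2 went from 44.1 and 51.1 to 164.4 and 165.5. Arntl in Ctrl went from 45.3 and 37.7 to 157.9 and 139.3 and from 100 and 37 to 123.7 and 151.1 in these sets. Rises of Per2 and Arntl with time were thus also seen in the neighbors. Arhgef3 in the Slc12a3-negative nuclei had 580.4 and 663.9, 794.6 and 967.7, 711.1 and 485.4, and 918.7 and 964.2 CPM in Ctrl at ZT4, Ctrl at ZT16, cKOt at ZT4 and cKOt at ZT16, with no overlap between times in either genotype. In the other Slc12a3 nuclei Arhgef3 had 378.4 and 363.5, 468.9 and 609.6, 590.5 and 459.9, and 495 and 672.4 in the same order. There the times overlapped in cKOt and not in Ctrl. Phactr1 was lower in cKOt at ZT16 in both sets, at 488.4 and 742 against 1670 and 2203 CPM in the other Slc12a3 nuclei and at 6133 and 7277 against 7476 and 7889 in the Slc12a3-negative nuclei. Rnf150 in the other Slc12a3 nuclei had 5.91 and 36 CPM in Ctrl against 64.1 and 66.9 in cKOt at ZT4, without overlap. At ZT16 it had 23.7 and 52.3 against 82.1 and 40.8 there, with overlap. In the Slc12a3-negative nuclei it had 22.5 and 34.1 in Ctrl against 22.3 and 22.1 in cKOt at ZT4, where cKOt was not higher. The values there at ZT16 were 22.9 and 25.3 against 19.1 and 31.3, with overlap. For Klk1, Bhlhe40, Nr1d2 and Cry1 the difference from the other nuclei did not pass the threshold in the contrasts in which they were called. The same held for further named genes, among them Wwox, Bcas3, Mettl27, Scd2, Msmo1, Adamts16, Cables1, Nampt, Rtl4, Hspa5 and Pdia3. Wwox, for example, went from 1212 and 1217 to 741.4 and 735.2 CPM with time in the other nuclei of Ctrl. The changes of these genes are thus not shown to be particular to the gated nuclei.

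Within the gated nuclei, the leading changes were of like size along the Slc8a1 gradient, which is given without a test because the division was made on the data. The log2 change of Cry1 with time in Ctrl was 4.44 in Slc8a1-high and 3.83 in Slc8a1-low nuclei, and that of Per2 2.85 and 2.40. The genotype difference of Npas2 was 3.81 and 3.98 at ZT4 and that of Rnf150 2.55 and 3.04 at ZT16. Phactr1 differed by −0.95 and −1.38 at ZT16 and Klk1 by −1.28 and −1.39. Wider gaps were seen in Arntl, which changed with time in Ctrl by 0.37 and 1.47, and in Slc26a4, whose genotype difference at ZT4 was 0.70 and 3.87.

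The transport genes that give this segment its function showed no change past the threshold by edgeR in any contrast between groups. The lists on NaCl cotransport, sodium channels and aldosterone response, calcium, magnesium, potassium, distal transcription factors and stress held 94 genes beside the clock and the 5 genes of the rule, of which 84 to 87 were tested per contrast. None passed in the 4 group contrasts or the interaction, with 18, 9, 11, 13 and 3 at an unadjusted p under 0.05 (time in Ctrl, genotype at ZT4, genotype at ZT16, time in cKOt, interaction), and DESeq2 passed 1, 1, 1, 0 and 0. The unadjusted shares were 21.2%, 10.7%, 12.6%, 14.9% and 3.45% of the listed genes against 11.2%, 6%, 5.39%, 7.77% and 3.54% of all genes tested, so more of the lists than of all genes fell under that limit in the 4 group contrasts. Wnk1 ranged from 5675 to 7259 CPM over the 8 libraries, Klhl3 from 2063 to 2632, Wnk4, the kinase that drives the phosphorylation of Slc12a3, from 370.9 to 564.9 and Trpm6 from 1851 to 2580. Kl ranged from 820.4 to 1580 CPM, with a time difference in Ctrl of 0.48 (adjusted p = 0.267). The list medians lay between −0.13 and 0.05 for NaCl cotransport, −0.06 and 0.06 for calcium, −0.33 and 0.18 for sodium channels and aldosterone response, −0.22 and 0.06 for magnesium, −0.14 and 0.22 for potassium, −0.11 and 0.09 for distal transcription factors and −0.19 and 0.48 for stress, against 0.00 over all genes. Of the genes that formed the gate, given without a test, Slc12a3 ranged from 17909 to 20826 CPM, Slc8a1 from 32160 to 46246, Calb1 from 1163 to 2232, Trpv5 from 44.8 to 72.6 and Scnn1g from 57 to 122.2.

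A few of these genes came close to the threshold or passed it in the nuclei with few other markers. Umod had 312.5 and 362.1 CPM in Ctrl at ZT4, 512.8 and 580.4 in Ctrl at ZT16, 98.9 and 204.5 in cKOt at ZT4 and 269.7 and 247.3 in cKOt at ZT16. The cKOt libraries lay below those of Ctrl at the same time, by 1.17 at ZT4 (adjusted p = 0.0811) and 1.08 at ZT16 (adjusted p = 0.151) on the log2 scale, and by 1.20 and 1.30 in the smaller set (adjusted p = 0.00178 and 6.15e-04). In all other nuclei Umod was lower in cKOt as well, at 372.4 and 495.9, 677.9 and 619.1, 223.4 and 276.7, and 385.5 and 358 CPM in the groups in that order. The fit against these nuclei detected no difference in its genotype effect (−0.38, adjusted p = 0.796 at ZT4, and −0.26, adjusted p = 0.87 at ZT16). Umod is also a marker of the thick ascending limb and is counted in the rule that formed the smaller set. The other 4 markers of that limb summed to 4.42 and 8.15, 10.3 and 7.57, 3.01 and 9.95, and 7.87 and 8.47 UMIs per 10000 in the gated nuclei of the groups in that order. They overlapped between genotypes, and the part of transcripts from other cells was not tested. Tsc22d3 (GILZ), a target of glucocorticoid and mineralocorticoid receptors, had 63.4 and 27.7 against 107 and 145.1 CPM at ZT4 and ZT16 in Ctrl (1.49, adjusted p = 0.0763, and 1.38 with adjusted p = 0.0187 in the smaller set). Hspa8, the constitutive Hsp70, had 50.1 and 67.2 against 142.9 and 135.9 CPM (1.23, adjusted p = 0.0623, and 1.22 with adjusted p = 0.0178 in the smaller set). Zbtb16, a steroid-responsive zinc finger factor, differed with time in cKOt in the smaller set only (−1.78, adjusted p = 0.0474, and −1.42 with adjusted p = 0.244 in all gated nuclei).

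Among long non-coding RNAs (lncRNAs), which were fitted apart from mRNAs and are given as CPM of the lncRNA UMIs, 5 of 1413 tested changed with time in Ctrl (0.354%), 4 of 1432 differed by genotype at ZT16 (0.279%) and 9 of 1449 changed with time in cKOt (0.621%), 8 of these being lower at ZT16 (0.552% of those tested). DESeq2 passed 1, 0 and 2 lncRNAs in these contrasts. By genotype at ZT4 none of 1412 passed by edgeR or DESeq2, with 98 at an unadjusted p under 0.05 by edgeR, and none of 1578 passed the interaction by either tool, with 66. Gm13832 had 212.7 and 194.9 CPM in Ctrl at ZT4, 471.2 and 527.4 in Ctrl at ZT16, 128.5 and 129.1 in cKOt at ZT4 and 255.2 and 288.7 in cKOt at ZT16 (1.30 ± 0.25 with time in Ctrl, adjusted p = 0.0262). Its level in the other nuclei was 29.1 to 71.4. Gm21847 fell with time in both genotypes, from 86 and 103 to 28.7 and 28.6 CPM in Ctrl (−1.72 ± 0.37, adjusted p = 0.0392) and from 150.3 and 131.2 to 53.7 and 48.4 in cKOt (−1.51 ± 0.33, adjusted p = 0.0269), with 2.31 to 12.3 in the other nuclei. Gm27201 did so too, by 2.49 in Ctrl (SE 0.50, adjusted p = 0.0262) and 1.98 in cKOt (SE 0.44, adjusted p = 0.0292). Speer4cos had 106.6 and 111.9 CPM in cKOt at ZT4 and 24.9 and 21.5 at ZT16 (−2.27 ± 0.41, adjusted p = 0.00877), and 59.8 and 62.5 against 10.2 and 23.9 in Ctrl, with 0.54 to 2.3 in the other nuclei. Gm44127 had 49.2 and 69.2 CPM in Ctrl and 1.92 and 3.59 in cKOt at ZT16, a ratio of 23.3 with a counting interval of 7.57 to 116.8 (adjusted p = 0.00279). Gm21847, Gm27201 and Gm44127 missed the threshold by DESeq2, with adjusted p from 0.0572 to 0.176 in the contrasts given. Of the 8 omissions of a library, the call with time in Ctrl was lost in 4 for Gm13832, 5 for Gm21847 and 4 for Gm27201, and that in cKOt in 6 for Gm21847, 6 for Gm27201 and 4 for Speer4cos. The genotype call of Gm44127 was lost without replicate 1 of cKOt at ZT16 (−3.97).

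The 10 lncRNAs with the highest CPM in the gated nuclei were led by Malat1 with 765660 to 997495 and Neat1 with 7037 to 16198. These values carry the TMM scaling and are not shares of a library, and Malat1 held 85.6% of the lncRNA UMIs. None of the 10 passed a group contrast or the interaction by edgeR or DESeq2. By edgeR, 3, 0, 0, 2 and 1 had an unadjusted p under 0.05 in the order given above. Whether the counting used strand was not given in the sources used here, so how far reads of overlapping genes were kept apart is not known. Of the 86 genes called in the 4 group contrasts or the interaction, 76 overlapped another annotated gene on either strand (88.4%, against 81.8% of all genes tested). Lingo4 is one of them and had 0 UMIs in Ctrl at ZT4 and 5.37 to 11.2 CPM in the other 6 libraries.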

How the data were processed

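The authors aligned and counted the reads of 8 mouse kidney libraries and deposited, per library, a filtered matrix of raw UMI counts per gene and barcode. The submitters' processing notes name bcl2fastq 2.20, Cell Ranger 7.1.0, Seurat 5 and GRCm39. The study's methods name an mm10 reference for the counting of these nuclei, so the build is uncertain and no gene coordinates are given beyond promoter windows. The study's methods describe sorting of nuclei stained with DAPI to remove damaged nuclei, clumps and doublets. Handling of strand and a removal of doublets by software before deposit were not given in the sources used here.

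Of 82784 barcodes, 81391 were kept, with minimums of 500 genes and 800 UMIs and a limit of 2.0% on mitochondrial transcripts. Scrublet (scanpy 1.11.5) marked doublets, which were kept in the main results. Libraries held 36548873 to 54500820 UMIs after these filters. The members, gene lists and comparisons were chosen with earlier results of these data known. Counts were summed per library over the gated nuclei. Genes with at least 5 counts in both libraries of a compared group were tested with edgeR 4.0.16 (R 4.3.3, TMM factors, glmQLFit and glmQLFTest, 4 groups in 1 fit), lncRNAs and mRNAs separately, with Benjamini-Hochberg adjustment and a threshold of 0.05. Each library is 1 mouse, so p-values between groups set a difference against variation between mice, estimated over the 4 groups of 2 mice in 1 fit. A difference in summed levels cannot separate fewer cells of a type from less RNA per cell. Shares were compared by exact permutation (scipy 1.17.1). Counting intervals and floors (95%, 3 counts) cover counting error only.

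Named genes were those of the lists, the markers and the 10 lncRNAs with the highest CPM. Also named were up to 8 called mRNAs and 3 called lncRNAs per contrast and direction with the smallest p whose groups did not overlap. A few further called genes (Phactr1 in Ctrl, Arhgef3, the lipid genes, Lingo4) and the genes of the fit against other nuclei were chosen after their values were seen. A few genes are not reported here. Alternatives were DESeq2 1.42.0, other size factors, no filter on low counts, a replicate block, lncRNAs and mRNAs fitted together, a limit of 5% mitochondrial UMIs, at least 5 Slc12a3 UMIs, nuclei thinned to 2000 UMIs for shares, no called doublets, and each library left out. The splits by Slc8a1, the nuclei with few other markers and the fit against all other nuclei were added after seeing the data. On simulated data made for time in Ctrl (11546 genes), edgeR recovered 56% of genes changed 2-fold and 95% of those changed 4-fold, and 3.21% of its 156 calls were unchanged genes. The fit against the other nuclei recovered 28% and 86% (11566 genes), with 8.06% of 124 calls unchanged. Changes were put only into mRNAs with at least 10 counts in every library, so recovery of genes with fewer counts was not measured. In the simulation of the fit against other nuclei, these were drawn with the means and dispersions of the gated nuclei. Its rates therefore do not cover the differing cell types of the real other nuclei. No replicates were identical: chi-square per degree of freedom between replicates was 3.69 to 5.37.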

Additional observations from a re-analysis of the deposited data

Results flagged for a closer look

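The time effect (log2 change from ZT4 to ZT16) differed between cKOt and Ctrl for 3 genes, among them Cry1 and Slc26a4, by the interaction term of edgeR's quasi-likelihood test, and these 2 are given here because a difference between groups was itself tested and passed. The interaction of Cry1 was −3.98 (adjusted p = 0.00336), with a rise in Ctrl and 44 to 81.2 CPM in the 4 cKOt libraries. That of Slc26a4 was −5.76 (adjusted p = 0.0031) and −0.77 in the gated nuclei with few transcripts of other cells. The sum of the other 4 intercalated markers in each library is given above, and its part in the call was not tested.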

How the results depend on the processing

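Counts of called genes are given in the order time in Ctrl (42), genotype at ZT4 (25), genotype at ZT16 (25), time in cKOt (22) and interaction (3). Without a filter on low counts they were 337, 164, 144, 158 and 62. With a replicate block they were 122, 60, 40, 45 and 8, but replicate numbers are only labels, the deviations of same-numbered libraries correlated by 0.00199 to 0.37 over 7979 genes, and the block is no pairing by design. DESeq2 gave 39 for genotype at ZT4 and 6 for the interaction, and at least 5 Slc12a3 UMIs gave 7 for the interaction. Without called doublets, time in Ctrl gave 83 and time in cKOt 34. Alternatives chosen after seeing the data gave, in nuclei with few other markers, 103 for time in Ctrl and 47 for time in cKOt, in Slc8a1-high nuclei 9 for genotype at ZT4 and 13 for time in cKOt, and in Slc8a1-low nuclei 21, 10, 4 and 5 for time in Ctrl, genotype at ZT16, time in cKOt and interaction. Fewer nuclei enter each of these sets, and the causes of the changes in count were not tested. With 1 library left out, which leaves a group with 1 library assumed to vary like the others, the counts ranged from 14 to 90, 8 to 51, 4 to 32, 4 to 31 and 1 to 14. Against the other Slc12a3 nuclei, 1872 became 737 at 5 Slc12a3 UMIs, of which 483 were among the 1872, and ranged from 1568 to 1820 over omissions, and against the Slc12a3-negative nuclei from 4271 to 4475. The difference in shares changed sign at 5 Slc12a3 UMIs (−0.0104 by genotype, −0.0461 by time) and, by time, after thinning to 2000 UMIs (−0.117), and ranged from −0.171 to 0.24 and −0.209 to 0.197 over omissions. Of 2160 values of single genes over all settings, 1805 kept direction and call, 353 kept direction only and 2 changed direction: Nlgn1 by genotype at ZT4 in Slc8a1-high nuclei (0.31, with 84.6% of its UMIs in a library in 1 nucleus) and Ttc28 against the other Slc12a3 nuclei at 5 Slc12a3 UMIs (0.03). These 2160 values pool the group contrasts with the comparisons against the neighboring sets, which the gates formed. Named genes of the latter kept their call under each omission, so the total overstates how well the group contrasts held. Of the settings fitted for group contrasts only, the replicate block kept 86 calls and the nuclei with few other markers 75, with 11 weaker. Slc8a1-high nuclei kept 47, with 36 weaker, and Slc8a1-low nuclei 45, with 40 weaker. Groups of 2 mice and 323 to 489 nuclei per library limit all of these tests.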
